A study of Mus musculus with 6 samples.

Results

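The genes of intraflagellar transport and of the BBSome were followed in round spermatids, haploid cells of the testis that go on to build a tail and become sperm. They were taken from the deposited count table by symbol: the Ift and Bbs genes, the remaining subunits of both machines under their own names, the dynein-2 chains with the Dynlt and Dynll light chains, the GTPase genes Arl3, Arl6 and Arl13b, the tubby-like genes and Lztfl1. The rule found 53 of the 22770 gene rows, and all 53 passed the filter on low counts. Tulp1, which the rule also covers, matched no row and is not analysed here.

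Intraflagellar transport carries cargo along the microtubules of a growing cilium or sperm tail. Kinesin-2 motors move trains of IFT-B and IFT-A complexes to the tip, and dynein-2 brings them back. The BBSome is a coat-like adaptor that rides these trains and moves membrane proteins in and out of cilia. In the mouse testis several of these genes are needed to build the flagellum.

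The series compared 3 libraries of the genotype labelled Eif5a SKO with 3 labelled Wild type, all from round spermatids sorted from the testis at postnatal day 28, mostly at step 8. The labels do not expand SKO, and the deposited columns call these libraries cKO. The sources used here give no allele, Cre driver or strain. Nothing says that the libraries came from separate animals, so p-values measure only the spread between libraries, which may be technical.

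Eif5a, the targeted gene, had 270 to 338 counts in the SKO libraries and 36162 to 41278 in wild type. The labels and this gene match in all 6 libraries. Totals ran from 52055193 to 60970931 counts per library. The second principal component over all tested genes placed SKO replicate 3 at -71.4 and the other SKO libraries at 40.3 and 37.6, so replicate 3 stands apart. Round spermatid markers summed to 5260 to 5796 CPM (counts scaled to 1e6 of the effective library size) in wild type and 7867 to 9148 CPM in SKO, with 8 of 14 called higher. Of 10 Sertoli cell markers 5 had a row, and all 5 were called higher, with sums of 1.96 to 10.6 CPM in the wild-type group, against 49.8 to 192 CPM among the SKO libraries. Of 5 Leydig cell markers with a row 3 were called higher, at 1.23 to 20.1 against 7.22 to 43.9 CPM. Peritubular and vascular markers (2 rows, 1 called higher) summed to 3.98 to 10.1 against 15.2 to 33.3 CPM, and spermatogonia markers (4 rows, 2 called lower) to 21.2 to 24.9 against 14.9 to 18.4 CPM. Gfra1 made up most of the spermatogonia sum, and Uchl1 ran the other way, at 1.67 to 2.60 against 2.39 to 4.54 CPM. Spermatocyte markers (9 rows, 2 called higher and 1 lower) summed to 1319 to 1335 against 1111 to 1461 CPM. Immune markers (3 rows, 1 called lower) summed to 2.45 to 3.43 against 0.33 to 2.42 CPM. Adgre1 made up most of the wild-type sum, at 2.10 to 3.36 against 0.21 to 0.59 CPM. Cd68, at 0 to 0.16 against 0.04 to 0.83 CPM, leaned the other way. So did C1qa, at 0.07 to 0.19 against 0.08 to 0.99 CPM. The part of these cells in the results below was not tested. Markers of multiciliated epithelium, which uses the same transport genes, had 5 rows of 7 and summed to 368 to 400.2 CPM in the wild-type group, against 255 to 374 CPM among the SKO libraries. Deup1 made up most of that sum, at 350.0 to 382 CPM in wild type and 237 to 355 CPM in SKO. Foxj1, the defining transcription factor gene of that epithelium, stood at 1.23 to 4.42 CPM over all 6 libraries. In sorted populations, fewer cells of a type and less RNA per cell cannot be told apart.

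Members of both machines changed in both directions. Calls rest on the quasi-likelihood test of edgeR with an adjusted p (Benjamini-Hochberg) below 0.05. By it 11 of the 53 members were higher in SKO (20.8%) and 11 were lower (20.8%). Over all 19776 genes tested the shares were 21.2% higher and 20.9% lower, 42% in all, so the members' shares lie at that background. Their median log2 fold change (SKO against wild type) was -0.005, beside 0.012 for all genes. Scaled by library totals alone, 7 members were higher and 18 lower, where 14.3% and 28.7% of all genes were. A filter of 5 CPM in 3 libraries, which drops scarcer genes, left 51 members and 10279 genes. There 11 members were higher and 11 lower, where 29.9% and 26.7% of all genes were, so the background depends on abundance. The median size of change, with sign left out, was 0.347 on the log2 scale for the members and 0.642 for all genes. At least 2-fold changes were called in 4 members upward and 2 downward, where 11.7% and 13% of all genes did so. In 15 members every SKO library lay above every wild-type library and in 15 every one lay below, against a background of 27.3% and 28.3% of all genes. The count of lower members fell to 7 without SKO replicate 2, to 6 without wild-type replicate 2 and to 7 without wild-type replicate 3. In these fits 9, 8 and 8 members were higher. The shares of all genes fell too, to 17.6%, 15% and 16.1% lower and to 16.3%, 15.2% and 16.3% higher. For the counts per role below, the background is the 21.2% higher and 20.9% lower of all genes.

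**Figure D1:**
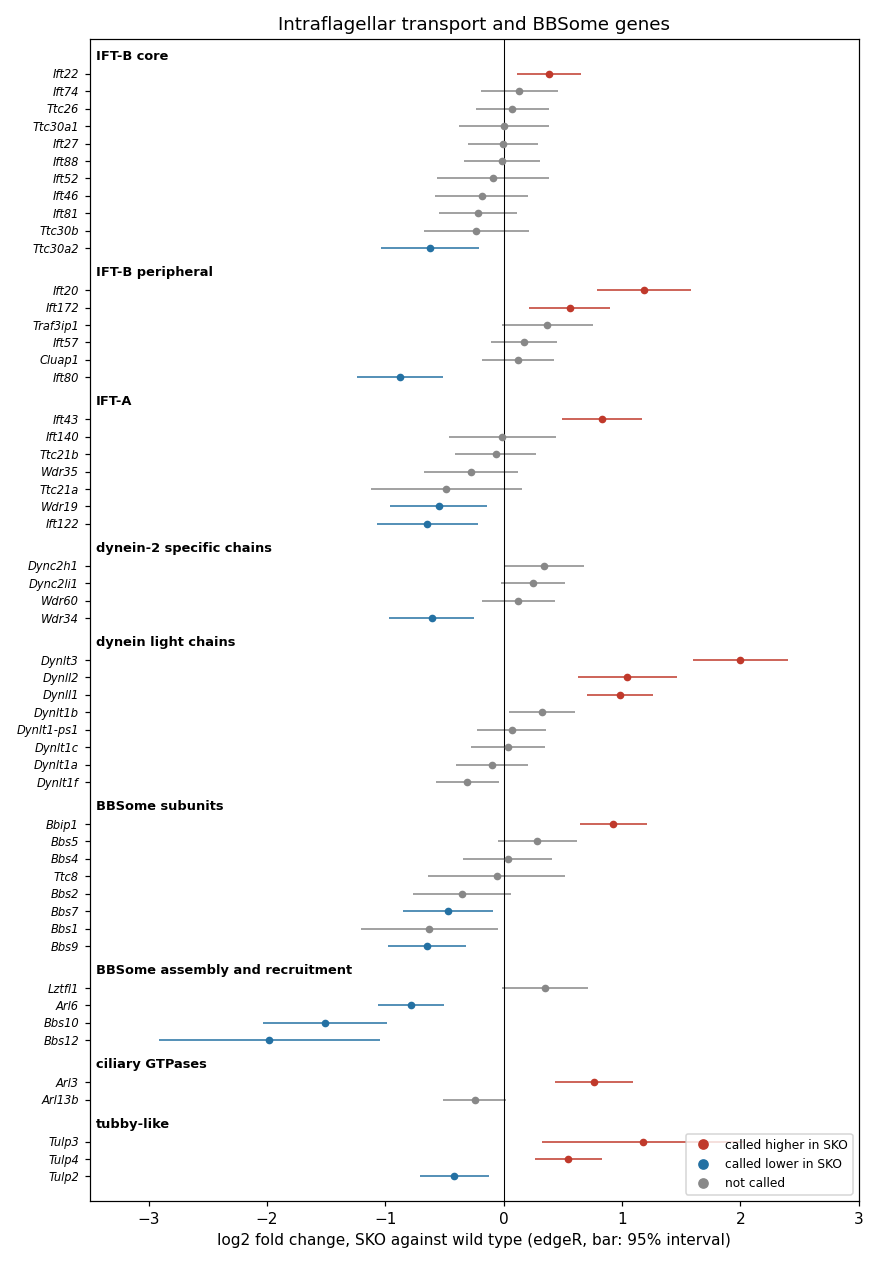
Log2 fold change, SKO against wild type, of each of the 53 members (points) with its 95% interval from edgeR (bars), grouped by role. Calls of both directions stand within most groups; the 9 uncalled members of the IFT-B core lie between -0.23 and 0.13, and Dynlt3 and Bbs12 mark the ends of the range at 2.00 and -1.98.

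Of the 22 called members, 12 passed the threshold in every one of the 15 or 16 other fits run on each: Dynlt3, Ift20, Dynll2, Dynll1, Bbip1, Ift43 and Arl3 upward, and Bbs12, Bbs10, Ift80, Arl6 and Bbs9 downward. The other 10 lost the call in at least 1 fit, none of them with a change of sign. Of the 31 members not called, 14 were called in at least 1 other fit.

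**Figure D2:**
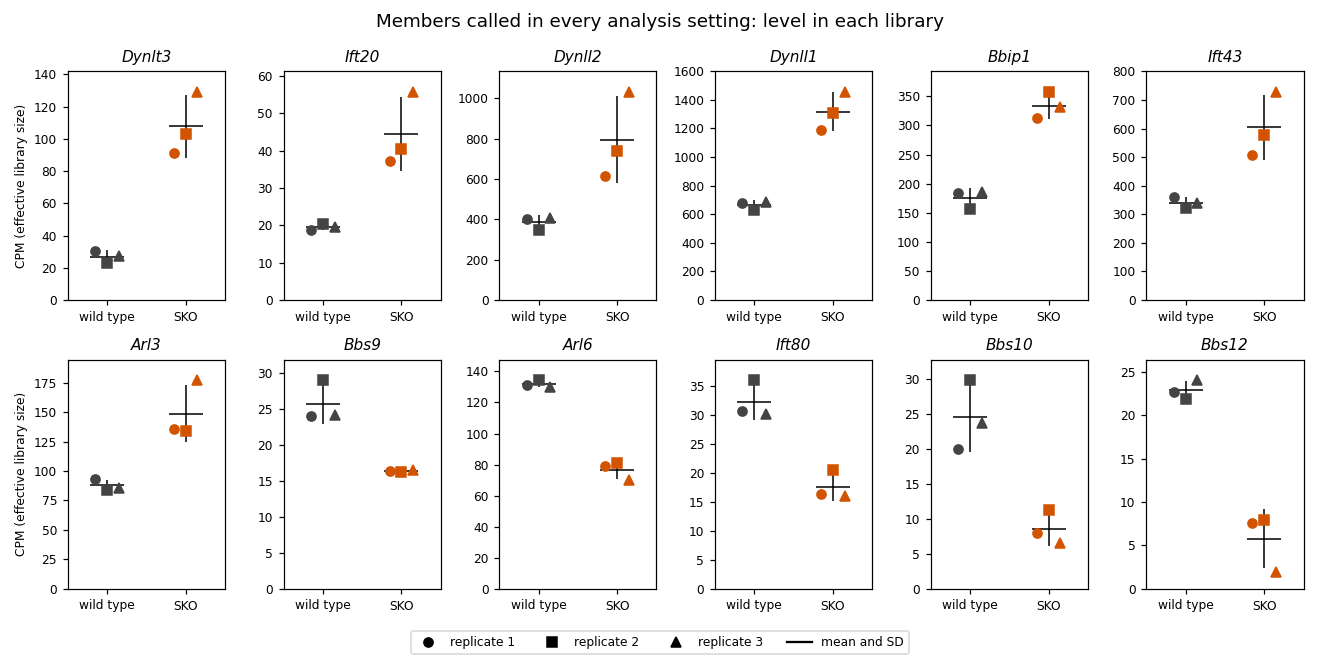
Level in CPM (axis from 0) of the 12 members called in every fit, one panel each, with a point for every library, the mean and the SD (n = 3 per group). In each panel the wild-type and SKO libraries do not overlap, and SKO replicate 3 is the lowest for Bbs12 at 1.92 CPM and the highest for Dynll2 at 1032 CPM.

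The IFT-B core, the part of the train that holds its large scaffold subunits and the tubulin-binding pair Ift74 and Ift81, had a median change of 0.13 with sign left out. Of its 11 genes 1 was higher and 1 lower, and the other 9 had log2 fold changes between -0.23 and 0.13, with 95% intervals that reached no further than -0.67 and 0.46. Ift88, a scaffold subunit, stood at 84.0, 89.6 and 86.7 CPM in wild-type replicates 1 to 3 and at 97.9, 87.5 and 72.8 CPM in SKO. The libraries overlap, and the log2 fold change was -0.01 (edgeR adjusted p = 0.953). Ift74 had 339, 335 and 386 CPM in the wild-type group, against 419, 424 and 318 CPM among the SKO libraries, and its partner Ift81 192, 189 and 189 CPM against 182, 176 and 132 CPM. For both, SKO replicate 3 was the lowest of the 6 libraries.

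Ift22, a Rab-like GTPase subunit, was the member of the core that rose. It had 238, 224 and 259 CPM in the wild-type group, against 295, 311 and 333 CPM among the SKO libraries, with no overlap. The log2 fold change was 0.38 ± 0.12 (SE; edgeR adjusted p = 0.0304). The call ended without SKO replicate 2 (adjusted p = 0.0834) and without wild-type replicate 1, 2 or 3 (0.121, 0.112 and 0.0623), and under scaling by library totals (0.371). Ift27, another Rab-like GTPase gene of the core, had means of 71.2 CPM in the wild-type group and 70.9 CPM in the SKO group. Hspb11, its partner on the train and no member, was looked up after its values were seen. Its mean rose from 20.5 to 40.9 CPM, or by 0.995 ± 0.145 on the log2 scale (edgeR adjusted p = 0.000624). The difference between these partners was not tested.

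Ttc30a2, one of 3 adjacent copies for the subunit IFT70, was the most abundant core gene per kb of transcript, at 192 CPM per kb in wild type. It had 433, 506 and 460 CPM in the wild-type group, against 358, 334 and 217 CPM among the SKO libraries, all below. It fell by 0.62 ± 0.18 on the log2 scale (edgeR adjusted p = 0.022), a call that ended without wild-type replicate 2 (0.0856) or 3 (0.0578). Of its stretches of 100 bases, 39.8% also occur in Ttc30a1 or Ttc30b, so reads of the copies are partly interchangeable. Ttc30b and Ttc30a1 were not called, at log2 fold changes of -0.23 ± 0.20 and 0.00 ± 0.17.

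Peripheral IFT-B subunits, which dock onto the core and contact the motor, changed in both directions. Ift20, a small subunit also found at the Golgi that sorts membrane cargo toward the cilium, had 18.8, 20.2 and 19.6 CPM in the wild-type group, against 37.1, 40.5 and 55.8 CPM among the SKO libraries. Every SKO library lay well above wild type, and SKO replicate 3 was the highest. The log2 fold change was 1.19 ± 0.18 (edgeR adjusted p = 0.000743), or 0.96 without SKO replicate 3 (adjusted p = 0.000291). Ift80 moved the other way: 30.7, 35.9 and 30.2 CPM in the wild-type group, against 16.3, 20.4 and 16.0 CPM among the SKO libraries. Its log2 fold change was -0.88 ± 0.16 (edgeR adjusted p = 0.00221), and no library of one group reached the other.

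Ift172, the largest peripheral subunit, rose from 70.1, 64.9 and 66.4 CPM to 84.3, 94.5 and 118 CPM. The log2 fold change was 0.56 ± 0.15 (edgeR adjusted p = 0.0152). The call ended without wild-type replicate 2 (0.0606) or 3 (0.0581) and under scaling by library totals (0.139), where the log2 fold change was 0.33. Ift57, Traf3ip1 and Cluap1 did not pass the test, at 0.17, 0.37 and 0.12. With the length and GC offset Traf3ip1 was called higher, at 0.71 (edgeR adjusted p = 0.00451). Ift57, the most abundant of the peripheral genes at 63.9 CPM per kb in wild type, had 169, 163 and 168 CPM in the wild-type group, against 205, 189 and 167 CPM among the SKO libraries. Traf3ip1, a microtubule-binding subunit, nevertheless had all 3 SKO values (33.05, 30.6 and 41.5 CPM) above wild type (29.2, 29.0 and 23.0 CPM). Exons of other genes cover 40.8% of the exon bases of Cluap1, so its counts are uncertain.

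The IFT-A complex, which drives the return journey and brings membrane receptors in, had 1 of 7 genes higher and 2 lower. Ift43, a small IFT-A subunit, was the most abundant of them at 435 CPM per kb in wild type and 773 CPM per kb in SKO. Its levels were 362, 322 and 338 CPM in the wild-type group, against 507, 579 and 729 CPM among the SKO libraries. It rose by 0.83 ± 0.15 (edgeR adjusted p = 0.00211), or by 0.64 without SKO replicate 3 (adjusted p = 0.000385).

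The core IFT-A genes Ift122 and Wdr19 were lower. Ift122 had 82.7, 118 and 83.7 CPM in the wild-type group, against 73.9, 54.6 and 53.3 CPM among the SKO libraries, a log2 change of -0.64 ± 0.19 (edgeR adjusted p = 0.0219). The call ended without SKO replicate 2 (0.0684) or wild-type replicate 2 (0.0996), and with an offset for transcript length and GC content (-0.24, adjusted p = 0.266). Wdr19 went from 29.9, 43.5 and 30.4 CPM to 25.7, 24.2 and 21.0 CPM, at -0.55 ± 0.18 (edgeR adjusted p = 0.0365). Its call ended with SKO replicate 1, 2 or 3 left out (0.0514, 0.0701 and 0.0512) and with wild-type replicate 1 or 2 left out (0.0503 and 0.151), and with the length and GC offset (0.0655).

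The other IFT-A genes, Ift140, Ttc21b, Wdr35 and Ttc21a, were not called, with log2 fold changes from -0.48 to -0.01. With the length and GC offset Ift140 was called higher, at 0.42 (edgeR adjusted p = 0.0342). Ttc21a, the paralog of the IFT-A subunit gene Ttc21b, scattered most among these: 32.0, 46.2 and 24.6 CPM in the wild-type group, against 19.5, 19.3 and 34.8 CPM among the SKO libraries. Without SKO replicate 3, the only SKO library inside the wild-type range, it was lower by edgeR, with a log2 fold change of -0.86 (adjusted p = 0.017). Over all 6 libraries with the length and GC offset it was -0.011 (edgeR adjusted p = 0.973).

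Dynein-2, the retrograde motor, had 1 of its 4 specific chains called. Wdr34, one of its 2 intermediate chain genes, had 26.4, 30.8 and 33.04 CPM in the wild-type group, against 18.6, 18.1 and 22.4 CPM among the SKO libraries. It fell by 0.61 ± 0.16 (edgeR adjusted p = 0.0126). The call ended without wild-type replicate 3 (0.0608) and with the length and GC offset (-0.30, adjusted p = 0.116). The other intermediate chain gene, Wdr60, stood at 110, 113 and 102 CPM in the wild-type group, against 117, 103 and 134 CPM among the SKO libraries. The Wdr34 to Wdr60 log2 ratio was lower in SKO by 0.73, from -1.86 ± 0.22 to -2.58 ± 0.08 (SD, n = 3; exact permutation test, two-sided, p = 0.1, the smallest that 3 against 3 allows; adjusted p = 0.18 over 9 gene pairs). The heavy chain gene Dync2h1 and the light intermediate chain gene Dync2li1 were not called (0.34 and 0.25), although all SKO libraries of each lay above wild type. Dync2li1, the most abundant of the 4 at 57.4 CPM per kb in wild type, had 79.1, 77.1 and 77.0 CPM in the wild-type group, against 93.6, 96.1 and 87.1 CPM among the SKO libraries.

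Dynein light chains are small dimers that dynein-2 shares with cytoplasmic dynein, and the LC8 chains also bind many other proteins. Of 8 genes 3 were called, each of them higher. Dynlt3, on the X chromosome, rose most among all members: 30.7, 22.8 and 27.3 CPM in the wild-type group, against 91.4, 103 and 129 CPM among the SKO libraries. The groups lie far apart, at a log2 change of 2.00 ± 0.18 (edgeR adjusted p = 5.81e-05). Among the 740 X-linked genes tested 63.4% were higher, with a median of 1.31.

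Dynll1 and Dynll2, the genes of the LC8 pair, rose side by side. Dynll1 had 681, 628 and 688 CPM in the wild-type group, against 1186, 1307 and 1456 CPM among the SKO libraries (0.98 ± 0.12; edgeR adjusted p = 0.000312). Dynll2 had 402, 345 and 407 CPM in the wild-type group, against 613, 736 and 1032 CPM among the SKO libraries (1.05 ± 0.19; edgeR adjusted p = 0.00189). The Dynll1 to Dynll2 log2 ratio was 0.79 ± 0.06 in wild type and 0.758 ± 0.235 in SKO (SD, n = 3; exact permutation test, two-sided, p = 0.9). It changed by -0.036, and by 0.095 without SKO replicate 3, where that ratio was the lowest of all 6 libraries at 0.50.

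Reads of the Dynlt1 genes are partly interchangeable. Of stretches of 100 bases, 43.9% in Dynlt1a, 82% in Dynlt1b, 86.5% in Dynlt1c, 85.1% in Dynlt1f and 100% in Dynlt1-ps1 also occur in another of these genes. The coding sequences have 342 bases, and those of Dynlt1a, Dynlt1c and Dynlt1f, on chromosome 17 with Dynlt1b, and of the processed pseudogene Dynlt1-ps1, on chromosome 6, differ from Dynlt1b at 1 position, written A21C and counted from the first base of the start codon. The first 51 bases are shown, with that base in capitals, because they hold the only difference (GENCODE M21, GRCm38).
Dynlt1b: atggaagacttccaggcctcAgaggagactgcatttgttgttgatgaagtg
Dynlt1a: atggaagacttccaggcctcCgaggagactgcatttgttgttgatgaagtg
Dynlt1c: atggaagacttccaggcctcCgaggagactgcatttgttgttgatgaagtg
Dynlt1f: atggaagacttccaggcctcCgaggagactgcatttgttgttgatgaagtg
Dynlt1-ps1: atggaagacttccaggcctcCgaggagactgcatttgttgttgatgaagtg
The pseudogene row held 645 to 728 CPM in the wild-type group, against 648 to 820 CPM among the SKO libraries, more than any of the 4 genes. Summed over the 5 rows, the level was 1830, 1649 and 1759 CPM in the wild-type group, against 1577, 1949 and 1671 CPM among the SKO libraries. The sums overlap, with a log2 difference of -0.02, and none of the 5 rows was called. The rows did not move alike within that sum. Dynlt1b had 222, 206 and 215 CPM in the wild-type group, against 256, 299 and 249 CPM among the SKO libraries (0.32 ± 0.12; edgeR adjusted p = 0.0627). Dynlt1f had 417, 379 and 405 CPM in the wild-type group, against 301, 349 and 321 CPM among the SKO libraries (-0.31 ± 0.12; edgeR adjusted p = 0.0654). Neither row had overlapping groups. Without SKO replicate 3 both passed the threshold (edgeR adjusted p = 0.0165 and 0.0153). Dynlt1f was also called lower with DESeq2 (adjusted p = 0.047), under library totals (0.00417) and with the length and GC offset (0.00132). Dynlt1b was called higher with upper quartile factors (0.0418) and where 5 CPM in 3 libraries was required (0.032). Its log2 fold change was 0.039 with the length and GC offset (edgeR adjusted p = 0.806). Under library totals it was 0.081 (0.599). With the length and GC offset Dynlt1-ps1 was called lower, at -0.42 (0.0259), against 0.07 without it.

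The BBSome has 8 subunit genes, of which 1 was higher and 2 lower. Bbip1, the gene of its smallest subunit, rose from 184, 157 and 186 CPM to 313, 358 and 331 CPM. The SKO libraries lay close together, and the log2 fold change was 0.93 ± 0.13 (edgeR adjusted p = 0.000478). Bbs9, a scaffold subunit, had 24.0, 28.9 and 24.1 CPM in the wild-type group, against 16.4, 16.2 and 16.5 CPM among the SKO libraries, the tightest SKO values among the called members. It fell by 0.65 ± 0.15 (edgeR adjusted p = 0.00619).

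Bbs7 had 101, 123 and 98.0 CPM in the wild-type group, against 90.5, 79.5 and 61.7 CPM among the SKO libraries, at -0.47 ± 0.17 (edgeR adjusted p = 0.048). Its call ended without SKO replicate 2 (0.0783) and without wild-type replicate 1, 2 or 3 (0.0949, 0.179 and 0.075), and also with upper quartile factors (0.0525) and with no filter on low counts (0.0514). Bbs1, Bbs2, Bbs4, Bbs5 and Ttc8 did not pass, with log2 fold changes from -0.63 to 0.28. Bbs5 had 151, 131 and 157 CPM in the wild-type group, against 184, 201 and 149 CPM among the SKO libraries, which overlap. Bbs1 was scarce, at 4.60, 6.08 and 4.26 CPM in the wild-type group, against 4.19, 2.60 and 2.87 CPM among the SKO libraries, with no overlap (edgeR adjusted p = 0.0759). Per kb of transcript the subunit genes ran in wild type from 0.89 CPM for Bbs1 to 99.7 CPM for Bbs5, with Bbip1 next at 85.9. In SKO Bbip1, at 164 CPM per kb, stood above Bbs5, at 121.

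Of the 4 genes that assemble and place the BBSome 3 were lower, and their median log2 fold change was -1.15. Bbs10 and Bbs12 encode chaperonin-like proteins that help the subunits come together. Bbs12 had 22.7, 21.9 and 24.0 CPM in the wild-type group, against 7.58, 7.88 and 1.92 CPM among the SKO libraries, a log2 change of -1.98 ± 0.42 (edgeR adjusted p = 0.00432). SKO replicate 3 lay far below the other 2, and without it the change was -1.60 (adjusted p = 3.19e-05). Bbs10 had 20.03, 29.9 and 23.8 CPM in the wild-type group, against 7.95, 11.3 and 6.59 CPM among the SKO libraries, at -1.51 ± 0.23 (edgeR adjusted p = 0.000873). Mkks, another chaperonin-like gene, which is no member and was looked up after its values were seen, was scarce at 0.85 to 1.54 CPM in the wild-type group, against 0.97 to 1.90 CPM among the SKO libraries (edgeR adjusted p = 0.731).

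Arl6, the GTPase that recruits the assembled BBSome to membranes, had 131, 134 and 130 CPM in the wild-type group, against 78.9, 80.7 and 70.2 CPM among the SKO libraries. Both groups were tight, and it fell by 0.78 ± 0.12 (edgeR adjusted p = 0.00097). Lztfl1, which regulates BBSome traffic, was not called: 207, 196 and 218 CPM in the wild-type group, against 282, 304 and 202 CPM among the SKO libraries. Without SKO replicate 3, which lies among the wild-type values, its log2 fold change was 0.47 (edgeR adjusted p = 0.00191). Over all 6 libraries it was 0.045 with the length and GC offset (edgeR adjusted p = 0.784). Under scaling by library totals it was 0.10 (0.602).

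Arl3 releases lipid-tailed cargo inside the cilium, and Arl13b switches Arl3 on. Arl3 had 93.3, 84.2 and 85.6 CPM in the wild-type group, against 135, 134 and 177 CPM among the SKO libraries, at 0.76 ± 0.15 (edgeR adjusted p = 0.00281). Arl13b had 124, 127 and 117 CPM in the wild-type group, against 105, 101 and 105 CPM among the SKO libraries. It did not pass (-0.24 ± 0.12; edgeR adjusted p = 0.127), with every SKO library below wild type. The Arl3 to Arl13b log2 ratio went from -0.49 ± 0.10 to 0.51 ± 0.21 (SD, n = 3), a difference of 0.99 (exact permutation test, two-sided, p = 0.1; adjusted p = 0.18 over 9 pairs).

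Among the tubby-like genes, the family of the IFT-A adaptor gene Tulp3, all 3 were called. Tulp4 rose from 45.9, 44.6 and 41.9 CPM to 63.8, 65.5 and 64.0 CPM (0.55 ± 0.13; edgeR adjusted p = 0.00711). That call ended under scaling by library totals (0.31, adjusted p = 0.0796). Of its stretches of 100 bases 28.1% also occur in Gm2792, Gm2808 or Gm29719, so its counts are uncertain. Tulp2, a testis-rich gene, was the fourth most abundant member per kb, at 373 CPM per kb in wild type and 279 in SKO. It had 679, 765 and 661 CPM in the wild-type group, against 591, 494 and 493 CPM among the SKO libraries, at -0.42 ± 0.13 (edgeR adjusted p = 0.0272). The Tulp2 call ended without SKO replicate 2 (0.0706) and without wild-type replicate 1, 2 or 3 (0.0793, 0.105 and 0.0607), and with the length and GC offset (-0.15, adjusted p = 0.285).

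Tulp3, the adaptor best known for loading receptors onto IFT-A, was the scarcest member. It had 0.95, 0.89 and 0.69 CPM in the wild-type group, against 1.07, 2.36 and 2.297 CPM among the SKO libraries, which is 43 to 56 counts against 52 to 127. The log2 fold change was 1.18 ± 0.38 (edgeR adjusted p = 0.0323). This call ended when any of 5 libraries was left out: SKO replicate 2 (0.118) or 3 (0.0817), or wild-type replicate 1 (0.0644), 2 (0.0822) or 3 (0.1). It also ended under scaling by library totals (0.0769).

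**Figure D3:**
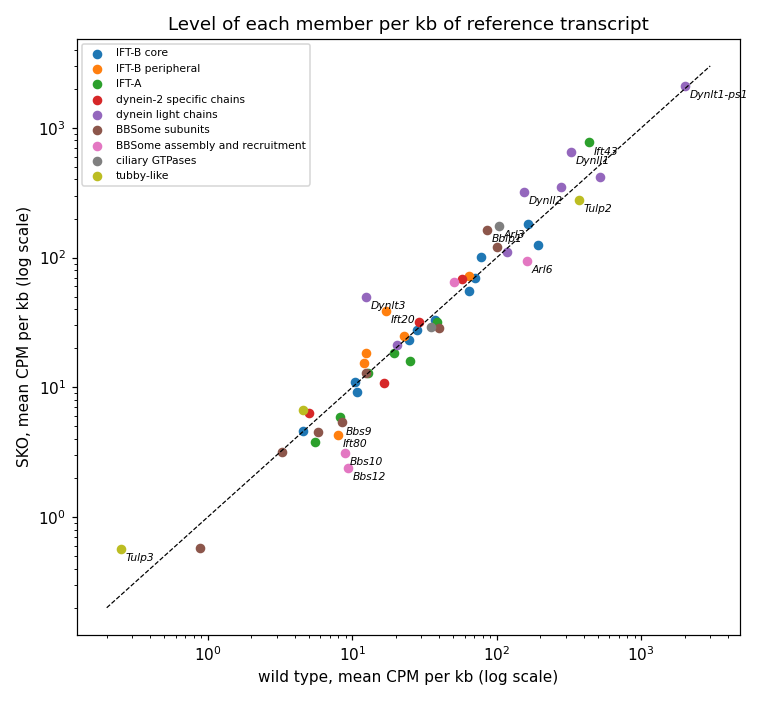
Mean level of each member per kb of its reference transcript, wild type (x axis) against SKO (y axis), both on log scales, coloured by role; the dashed line marks equal levels. Members span from 0.25 CPM per kb (Tulp3) to 2008 CPM per kb (Dynlt1-ps1) in wild type. The value of Dynlt1-ps1, a pseudogene of 342 bases, is uncertain, because 100% of its stretches of 100 bases occur in other Dynlt1 genes. Dynlt3 and Ift20 lie furthest above the line, at log2 fold changes of 2.00 and 1.19, and Bbs12 and Bbs10 furthest below it, at -1.98 and -1.51.

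SKO replicate 3 moved the members unevenly. It was the lowest of the 3 SKO libraries for 28 of the 53 members (52.8%) and the highest for 17 (32.1%), against 38.2% and 39.8% of all genes tested. The median member stood 0.05 and 0.11 above the wild-type mean on the log2 scale in SKO replicates 1 and 2 and 0.145 below it in replicate 3. Without that library 13 members were higher and 13 lower (21.4% and 23.5% of all genes): Wdr19 and Tulp3 left the calls and Bbs5, Ttc21a, Lztfl1, Arl13b, Dynlt1b and Dynlt1f joined them.

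**Figure D4:**
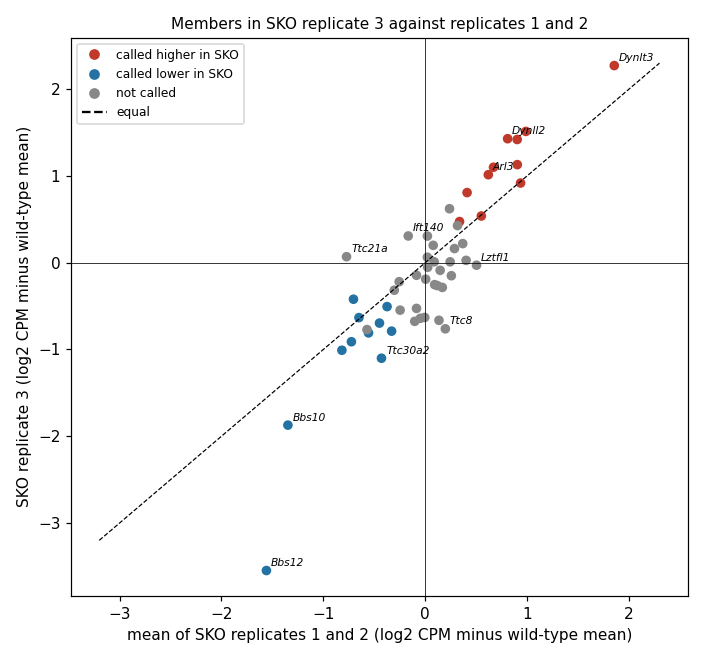
Each member's log2 CPM minus its wild-type mean in SKO replicate 3 (y axis) against the mean of SKO replicates 1 and 2 (x axis); the dashed line marks equal values. Points called higher mostly lie above the line and several uncalled ones below it, and Bbs12 is the farthest off, at -3.55 in replicate 3 against -1.59 and -1.53 in replicates 1 and 2.

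Many ciliary genes carry an X-box, the binding sequence of RFX transcription factors, and RFX2 is known to act in spermatids. Promoters of 300 bases (250 before and 50 after the start) were available for 44 of the 53 members from RefSeq (GRCm38.p6). A relaxed X-box (GTNNCC, then 3 free bases, then GNAAC) was searched on both strands and found in 7 of the 44 (15.9%), against 2.17% of 27025 gene promoters of the same length. The short core GTTGCC, which lies inside many X-boxes, was in 17 (38.6%) against 12.7%, and a strict form (GTTGCC, then ATGG, 1 free base and AAC) was in 1, Ttc30a2, against 0.0703% of all promoters. The windows show 1 relaxed match per gene in capitals, with up to 20 bases on either side, because they hold the element that was searched.
Ttc30a2: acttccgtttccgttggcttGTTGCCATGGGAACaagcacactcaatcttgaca
Bbs7: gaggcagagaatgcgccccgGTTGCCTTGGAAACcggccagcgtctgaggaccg
Ttc26: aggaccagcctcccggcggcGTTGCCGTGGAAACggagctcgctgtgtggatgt
Ift57: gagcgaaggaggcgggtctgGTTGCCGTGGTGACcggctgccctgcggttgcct
Bbs1: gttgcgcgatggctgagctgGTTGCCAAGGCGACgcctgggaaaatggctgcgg
Bbs4: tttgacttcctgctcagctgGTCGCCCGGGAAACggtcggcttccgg
Ift22: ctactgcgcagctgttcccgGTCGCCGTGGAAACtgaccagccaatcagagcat
Ift22 held a second match at -63. In GRCm38 these windows are chr2:75978170-75978223 (minus strand) for Ttc30a2, chr3:36613477-36613530 (minus) for Bbs7, chr6:38381471-38381524 (plus) for Ttc26, chr16:49699187-49699240 (plus) for Ift57, chr19:4906593-4906646 (minus) for Bbs1, chr9:59353459-59353505 (minus) for Bbs4 and chr5:136908097-136908150 (plus) for Ift22.

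Members with these elements changed in no common direction. Of the 7 with a relaxed X-box, Ift22 was called higher, Ttc30a2 and Bbs7 lower, and Ttc26, Ift57, Bbs1 and Bbs4 were not called. That is 42.9% called, with a median log2 fold change of 0.033. Among the 390 tested genes with this element 67 were higher and 114 lower (46.4% called), with a median of -0.181. Of the 17 members with GTTGCC, 2 were higher, 2 lower and 13 not called (23.5% called), and of the 27 without it 8 were higher, 7 lower and 12 not called (55.6%). Over all tested genes with a promoter the shares called were 46.9% with GTTGCC and 43.9% without it. The difference among members was not tested. Rfx2 and Rfx4 were looked up after their values were seen. Rfx2 stood at 96.7, 112 and 88.5 CPM in the wild-type group, against 94.0, 79.6 and 128 CPM among the SKO libraries (edgeR adjusted p = 0.941). Rfx4 fell by 0.78 ± 0.16 (edgeR adjusted p = 0.00413), from 138, 155 and 140 CPM to 98.2, 88.3 and 66.3 CPM. The same list held Rfx1 (0.39, edgeR adjusted p = 0.28), Rfx3 (-0.50, 0.0519) and Foxj1 (-0.18, 0.758), none of them called. It also held Mybl1, which was called higher (0.98, edgeR adjusted p = 0.00215).

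**Figure D5:**
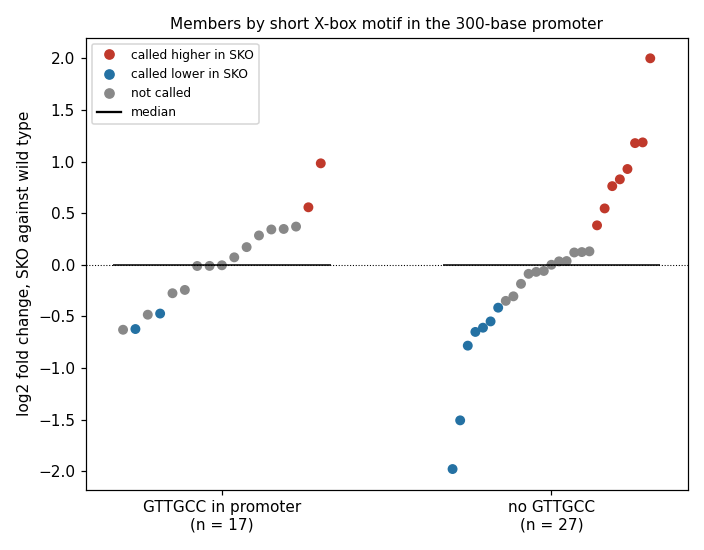
Log2 fold change of the 44 members with a promoter sequence, split by the presence of GTTGCC on either strand; points are genes and the line is the median. Both medians lie near 0 (-0.005 with and 0.00 without), and the members with the 6-letter core span -0.63 to 0.98 against -1.98 to 2.00 for those without.

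Promoters with neither X-box form are shown for 2 members that changed in opposite directions, Ift20, which rose, and Bbs12, which fell, with the core of the cyclic AMP response element, TGACG on either strand, in capitals. CREM, a factor that binds this element, is a known activator in round spermatids.
Ift20: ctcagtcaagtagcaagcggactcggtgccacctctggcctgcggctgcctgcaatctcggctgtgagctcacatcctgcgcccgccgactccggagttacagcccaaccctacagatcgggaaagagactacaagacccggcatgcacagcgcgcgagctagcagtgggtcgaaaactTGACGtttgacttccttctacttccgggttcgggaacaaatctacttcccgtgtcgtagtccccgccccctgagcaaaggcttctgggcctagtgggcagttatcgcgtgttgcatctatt
Bbs12: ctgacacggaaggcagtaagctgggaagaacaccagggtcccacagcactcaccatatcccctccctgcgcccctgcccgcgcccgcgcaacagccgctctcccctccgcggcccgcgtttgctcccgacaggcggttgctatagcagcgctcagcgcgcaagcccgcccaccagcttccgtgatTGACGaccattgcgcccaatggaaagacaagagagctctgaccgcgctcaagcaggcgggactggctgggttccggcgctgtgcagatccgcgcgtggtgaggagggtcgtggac
These are chr11:78536111-78536410 (plus) and chr3:37312304-37312603 (plus). TGACG occurred in 13 of the 44 member promoters (29.5%) and in 21% of all promoters; 3 of the 13 were higher, 3 lower and 7 not called (46.2% called). Of all tested genes with TGACG in the promoter 43% were called. The full element TGACGTCA, which contains it, was in 1 member, Ift57 (2.27%, against 1.88% of all).

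Other genes of the pathway were taken from a list of motors, adaptors, Rab and docking genes, transition zone genes and transcription factors. Of 57 with a row, 13 were higher (22.8%) and 9 lower (15.8%), with a median log2 fold change of 0.08. Over all genes tested 21.2% were higher and 20.9% lower, which is also the background for the smaller groups that follow. Kinesin-2 motor genes had 2 of 4 called, each higher. Rab GTPase and docking genes had 6 of 13 higher, 3 of them Rab genes, and 1 lower, and the transition zone, the gate at the base of the cilium, had 2 of 21 higher and 5 lower.

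The 3 upward calls with the lowest adjusted p were Rp2, Kif3b and Rab10. Rp2, on the X chromosome, encodes the protein that switches Arl3 off, and went from 71.5, 67.7 and 77.4 CPM to 213, 218 and 172 CPM (1.48 ± 0.14; edgeR adjusted p = 7.38e-05). Its background is the 740 X-linked genes tested, of which 63.4% were higher, with a median log2 fold change of 1.31. Kif3b, a kinesin-2 motor gene, went from 56.1, 66.1 and 55.8 CPM to 141, 141 and 169 CPM (1.34 ± 0.14; edgeR adjusted p = 0.000118). Rab10, a vesicle-traffic GTPase gene, went from 42.7, 43.7 and 46.5 CPM to 86.0, 85.3 and 77.6 CPM (0.91 ± 0.13; edgeR adjusted p = 0.000553). In each, no library of one group reached the other.

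The 3 downward calls with the lowest adjusted p were Tctn2, Inpp5e and Fbf1. Tctn2, a tectonic gene of the transition zone, went from 105, 139 and 103 CPM to 67.5, 52.8 and 51.0 CPM (-1.02 ± 0.17; edgeR adjusted p = 0.00133). Inpp5e, a ciliary lipid phosphatase gene whose product is Arl3 cargo, went from 31.1, 52.4 and 26.7 CPM to 14.004, 9.95 and 14.8 CPM (-1.51 ± 0.27; edgeR adjusted p = 0.00172). Fbf1, a distal appendage gene, was scarce and went from 4.34, 6.10 and 4.36 CPM to 2.07, 1.52 and 2.16 CPM (-1.37 ± 0.25; edgeR adjusted p = 0.0023). These groups do not overlap either.

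Longer transcripts had lower fold changes on average, though not steadily. Across the 19203 tested genes with a length, Spearman's rho between log2 length and log2 fold change was -0.216. Across the 53 members, which share the same 6 libraries, it was -0.199. Genes are not independent replicates, so no p is given. Members up to 1500 bases had 3 of 10 higher and 1 lower, with a median of 0.27. Of all 6998 genes of that length 32.4% were higher and 13.4% lower, and their median was 0.35. Ift20, Ift43 and Arl3, of 1141, 783 and 843 bases, are the 3 that rose, and Arl6, of 811 bases, is the one that fell. With the length and GC offset their log2 fold changes were 1.02, 0.55, 0.52 and -1.16, each still past the threshold (edgeR adjusted p = 0.00146, 0.00421, 0.00678 and 0.000105).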

How the data were processed

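Smart-seq2 libraries of polyadenylated RNA from sorted round spermatids were measured, 3 per group. The authors deposited raw counts per gene. Aligner and counter, per the submitters' processing notes, were HISAT2 2.0.5 and featureCounts 1.5.0-p3 from Subread, after Trim Galore 0.6.4 and FastQC, on GRCm38 (mm10). The sources used here do not state strand or multi-mapping settings, so overlapping genes and near-identical copies cannot be separated. PCR reads without molecular identifiers are not independent molecules.

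Each column was matched to a label through its genotype and number. edgeR 4.0.16 (R 4.3.3) was run on all counts with filterByExpr (minimum 10 and 15), TMM scaling and a quasi-likelihood test on group alone, two-sided, adjusted by Benjamini-Hochberg over 19776 genes; 2994 were below the filter. Errors are SE from the F statistic. Fit and filter were tested on simulated data of 19382 genes with 200 changed: 28% of 2-fold and 75% of 4-fold changes were recovered, and 5.5% of calls were unchanged genes. In the real data 42% of genes were called, far more than were changed there, so these rates do not carry over to the data. Lengths and positions are from GENCODE M21, for all 53 members. Levels per kb divide CPM by the length of the transcript with the longest coding sequence. Ratios of 9 gene pairs used log2 CPM with a prior count of 2. Values per library were given, per role, for up to 3 members called in each direction with the lowest adjusted p and for the most abundant per kb, and, from the list of other pathway genes, for the 3 with the lowest adjusted p in each direction; Ift88, Ift74, Ift81, Traf3ip1, Ttc21a, Wdr60, Bbs1, Lztfl1, Arl13b, Dynlt1b and Dynlt1f were added after their values were seen. Members, roles and lists were chosen with earlier results of these data known. Alternatives were DESeq2 1.42.0, limma-voom (limma 3.58.1), other factors, filters and thresholds, each library left out, a replicate block, and a loess offset for length and GC content.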

Additional observations from a re-analysis of the deposited data

How the results depend on the processing

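With factors left out and only library totals used, the all-gene median was -0.228, the members' median -0.244, and 7 members were higher and 18 lower (14.3% and 28.7% of all genes); log2 fold changes that turned sign there were those of Ttc30a1 (-0.246), Ift74 (-0.114), Ttc26 (-0.171), Dynlt1-ps1 (-0.173), Bbs4 (-0.214), Wdr60 (-0.11), Cluap1 (-0.118), Ift57 (-0.071) and Dynlt1c (-0.203), none of them called. At a threshold of 0.01, 5 members were lower, and Dynlt3, Dynll1, Bbip1, Ift20, Dynll2, Ift43, Arl3 and Tulp4 were higher. The share of all genes at that threshold was not counted. Leaving out one library gave 8 to 13 higher and 6 to 13 lower members, with 15.2% to 21.4% and 15% to 23.5% of all genes. The numbers did not pair the libraries: same-numbered deviations correlated at -0.022, -0.051 and -0.065, and no library matched its own number best. With the replicate block 9 members were higher and 8 lower (18% and 18.5% of all genes). With the block and the length and GC offset 12 were higher and 9 lower (17.8% and 18.7% of all genes). The block alone ended the calls of Ift22 (adjusted p = 0.0895), Wdr19 (0.0615), Bbs7 (0.0626), Tulp2 (0.0766) and Tulp3 (0.0689), and the block with the offset those of Wdr34 (0.17), Wdr19 (0.0918), Ift122 (0.291) and Tulp2 (0.401). Members not called in the group-only fit also changed sign elsewhere. Ttc30a1 did so with DESeq2 (-0.012), RLE factors (-0.012), no filter (-0.001), limma-voom (-0.007) and the block (-0.008). Ift88, Ift27 and Ift140 did so with upper quartile factors (0.021, 0.031 and 0.029) and where 5 CPM in 3 libraries was required (0.012, 0.022 and 0.02). With the length and GC offset Ttc21b (0.045), Bbs5 (-0.175), Ttc30a1 (-0.043), Ift74 (-0.109), Dynlt1-ps1 (-0.417), Ift46 (0.123), Dynlt1a (0.141) and Ift140 (0.416) turned, and with the block added they stood at 0.051, -0.177, -0.044, -0.111, -0.43, 0.092, 0.133 and 0.421. Of these, Dynlt1-ps1 passed the threshold with the new sign in both fits (adjusted p = 0.0259 and 0.0385) and Ift140 with the offset alone (0.0342); Traf3ip1 and Dynlt1f were called in both with no change of sign. Over single libraries left out, the values that turned ran from -0.156 to 0.068 (Ttc21b), -0.133 to 0.083 (Ttc30a1), -0.264 to 0.098 (Ift52), -0.016 to 0.112 (Ttc26), -0.063 to 0.117 (Dynlt1-ps1), -0.12 to 0.135 (Bbs4), -0.259 to 0.161 (Ttc8), -0.012 to 0.186 (Wdr60), -0.137 to 0.06 (Ift88), -0.074 to 0.065 (Ift27), -0.051 to 0.089 (Dynlt1c) and -0.223 to 0.185 (Ift140). The Dynll1 to Dynll2 ratio difference ran from -0.132 to 0.095 and that of Ift88 to Ift140 from -0.168 to 0.259. The cause of these turns was not tested. Depth limits Tulp3, Bbs1 and Mkks most.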
